A study of Mus musculus with 2 samples.

Results

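The 44 genes described here encode the chains of the collagens, and they were taken as every gene symbol made of Col, a number, the letter a and a number, out of 32285 genes in the deposited matrix. Their UMIs (unique molecular identifiers, 1 for each captured transcript molecule) were summed over the stromal cells of mouse skin, meaning fibroblasts, endothelial cells, mural cells of the vessel wall, Schwann cells of the nerves and keratinocytes of the epidermis. The naming rule uses no measured value, although it was picked with earlier results of these data known.

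Dorsal shaved skin of wild-type (WT) male mice was digested with collagenase-A, Dispase-II and DNaseI, and cells positive for the macrophage marker F4/80 with high MHCII were sorted for droplet sequencing of transcript 3′ ends. The young group was 1 library of 2 pooled mice aged 9 weeks and the old group was 1 library of 2 pooled mice aged 108 weeks. The matrix holds both libraries, told apart by a barcode suffix of 1 or 2, and no source used here ties a suffix to an age, so each is called by its suffix below and has no known age. With 1 library for each age there was no replicate, and no test was run between libraries or between cell classes.

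Collagens are trimers of chains that wind into a triple helix. Fibrillar collagens build the load-bearing fibres of the dermis, with collagens I and III in the bulk of them and collagen V regulating fibre width, while collagen IV forms the sheet-like network of basement membranes under epithelia and around vessels, nerves and muscle fibres. Collagen VI makes beaded microfilaments, the FACIT collagens sit on the surface of fibrils, and a few collagens are transmembrane proteins.

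The gate was set on macrophages, so the stromal cells came through a sort that was not meant to keep them, and their numbers say nothing of their share of the skin. Of 5257 barcodes, 3797 passed the lower limits of 500 genes and 1000 UMIs and the upper limit of 10% mitochondrial UMIs, 2396 from suffix 1 and 1401 from suffix 2, with median depths of 10761 and 11196 UMIs. The stromal classes held 826 fibroblasts (318 from suffix 1 and 508 from suffix 2), 352 endothelial cells (171 and 181), 69 mural cells (27 and 42), 126 Schwann cells (57 and 69) and 68 keratinocytes (45 and 23). Clusters were made without any collagen gene, and each class had all or nearly all of its marker genes raised, with 1 exception. A fibroblast cluster of 119 cells was named by the markers of a fibroblast group (Prlr-Crabp1, described below) and not by the general fibroblast markers. Another 2039 cells were myeloid, and their collagen UMIs are given below as a level in cells that should make little fibrillar collagen. Doublets were not removed. A single barcode sequence, 1 of all, occurred in both libraries, and it was not among the cells kept.

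The libraries differed in collagen before any gene was singled out. The 44 genes took 10.8% of all fibroblast UMIs in suffix 1 and 3.33% in suffix 2, a 3.25-fold difference, and 0.0395% and 0.0102% of the UMIs of myeloid cells. Most levels below are therefore given for each library. Levels, ratios and shares of cells given only once are over both libraries unless a library is named. Levels are UMIs per 1000000 UMIs of the class (CPM), they are not divided by transcript length, and intervals are exact 95% Poisson or binomial intervals that cover counting error only. The share in a class cannot separate more collagen RNA in each cell from a different mixture of cell states within that class.

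Over both libraries the 44 genes gave 73223 CPM in fibroblasts (73077 to 73369), or 7.32% of the UMIs. Their share was 0.433% in Schwann cells, 0.265% in mural cells, 0.201% in endothelial cells and 0.101% in keratinocytes, against 0.0321% in myeloid cells. The kinds of collagen differed as much as the amount. Of the collagen UMIs, 96.0% were fibrillar in fibroblasts and 58.0% in Schwann cells, while basement membrane chains made up 63.4% in endothelial cells and transmembrane chains 64.8% in keratinocytes. Mural cells were the most even, with 41.7% basement membrane, 31.4% fibrillar and 22.2% microfibrillar UMIs. In myeloid cells 92.8% of the few collagen UMIs were fibrillar, close to the makeup of the fibroblasts.

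**Figure D1:**
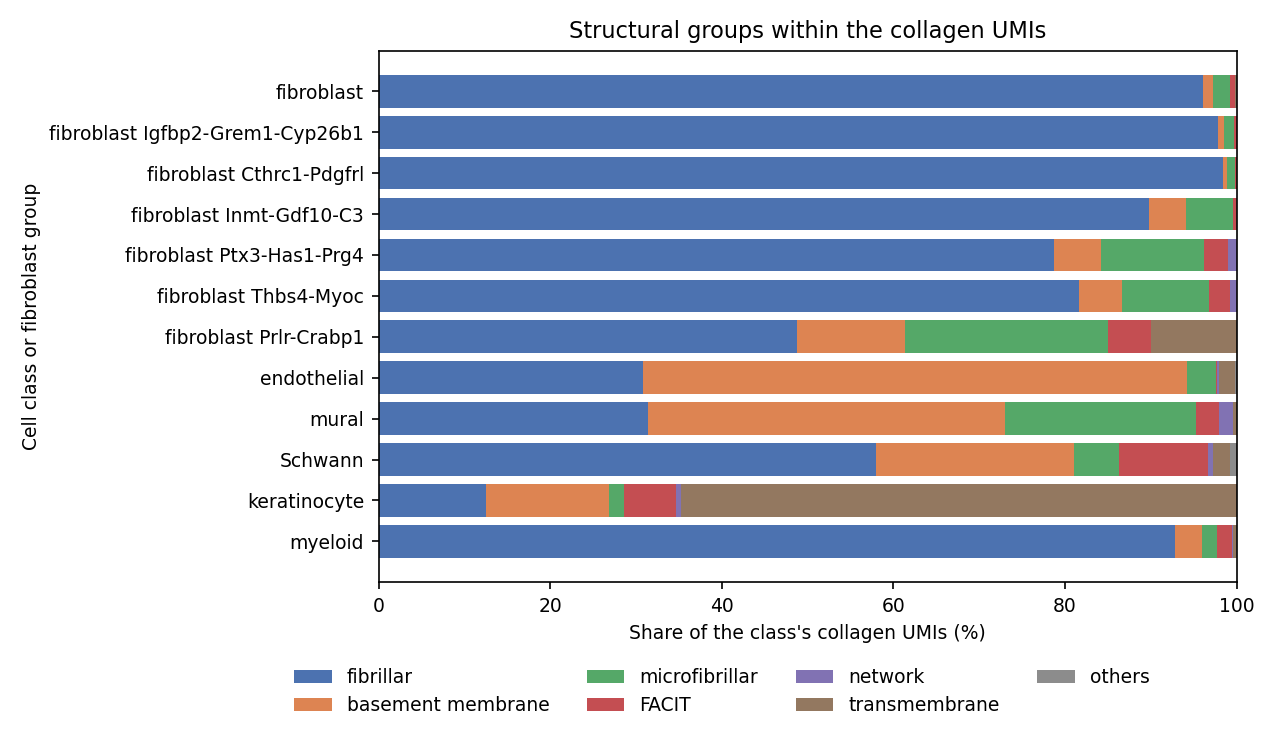
Share of the UMIs of the 44 collagen genes (x axis, %) that fell in each structural group, for each cell class and each fibroblast group (y axis, 1 bar each, both libraries summed). Fibrillar chains fill 96.0% of the fibroblast bar, basement membrane chains 63.4% of the endothelial bar and transmembrane chains 64.8% of the keratinocyte bar.

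Of the 44 genes, 27 reached 20 CPM in at least 1 stromal class and 17 did not, and none was without a UMI over all kept cells. Fibroblasts had the highest level of 14 of the 27, Schwann cells of 7, and endothelial cells, mural cells and keratinocytes of 2 each. Of the 8563 genes that reached 20 CPM in a stromal class, 15.8% led in fibroblasts and 27.5% in Schwann cells. Endothelial cells led in 18.6% of them, mural cells in 18.0% and keratinocytes in 20%. The leading class was the same in both libraries for 21 of the 27. A level at least 4 times that of every other class was found for 10 of 44 genes, against 3.58% of all genes, which is 10 of 27 against 13.5% of the genes that reached 20 CPM. Of these, 6 led in fibroblasts, 3 in Schwann cells and 1 in keratinocytes, against 0.623%, 0.79% and 0.895% of all genes. None led in endothelial or mural cells, where 0.722% and 0.548% of all genes did. The number of chains at 20 CPM or more was 22 in Schwann cells, 21 in fibroblasts, 17 in mural cells, 10 in keratinocytes and 8 in endothelial cells. Over all genes the numbers were 6198, 5446, 5622, 5455 and 5642 in the same order. Col24a1, Col6a3 and Col8a1 were under 20 CPM in the Schwann cells with at most 2 fibroblast marker UMIs, described below. The order of Schwann cells and fibroblasts is therefore not read as a result.

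**Figure D2:**
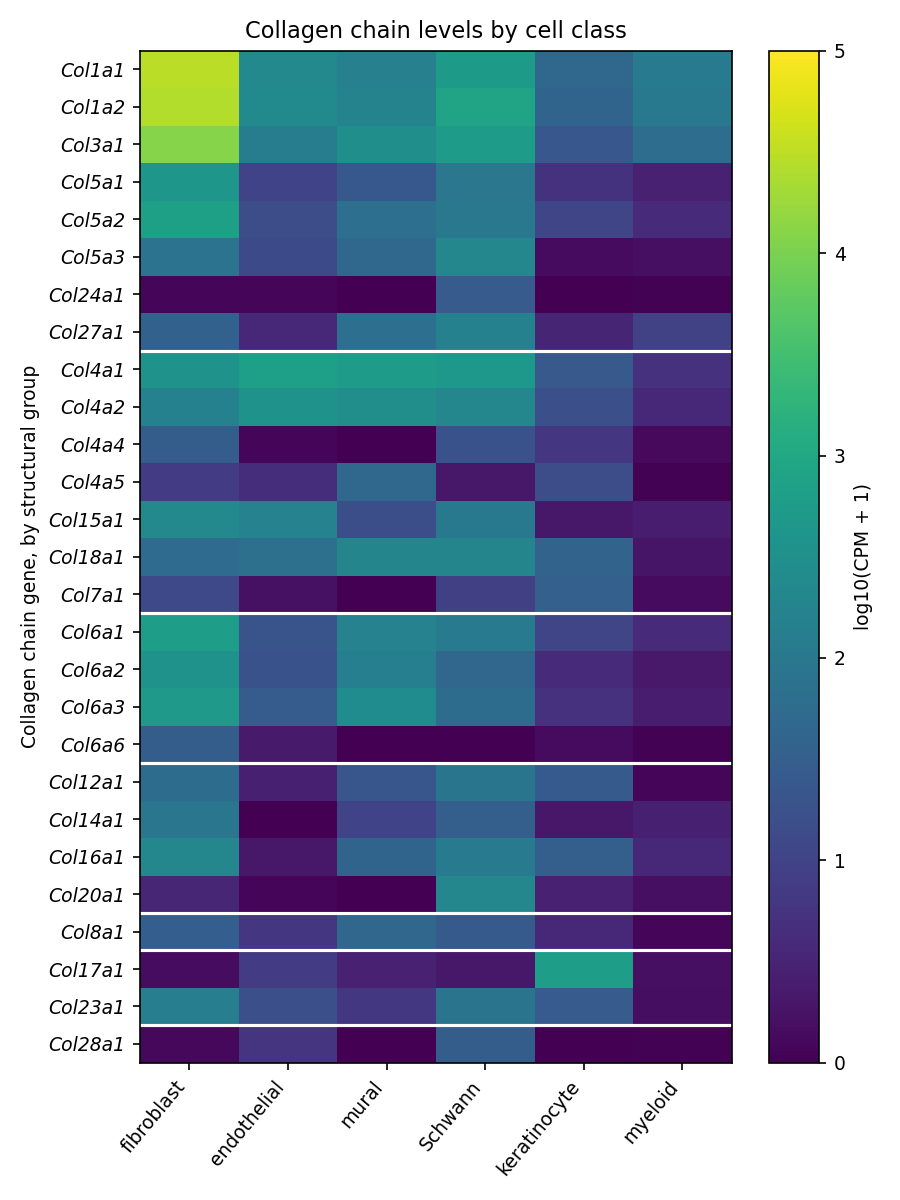
Level of each of the 27 collagen genes that reached 20 CPM (y axis, grouped by structure) in the 5 stromal classes and in myeloid cells (x axis), as colour on a scale of log10(CPM + 1). Brighter colours are higher levels. Col1a1, Col1a2 and Col3a1 are brightest in fibroblasts, Col4a1 and Col4a2 are high in 4 classes, and Col20a1 and Col17a1 each stand out in 1 class.

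The fibrillar genes were led by the 3 chains of dermal fibres. Col1a1 and Col1a2, which encode the chains of collagen I, were at 45514 and 39417 CPM in the fibroblasts of suffix 1 and at 12398 and 12449 CPM in those of suffix 2. Col3a1, the only chain of collagen III, was at 18278 and 5028 CPM. All 3 were over 4 times the level of any other class in both libraries. Over both libraries Col1a1 was 57.1 times and Col1a2 32.2 times the level in Schwann cells, the next class, and Col3a1 was 21.7 times that level. Col1a1 (ENSMUSG00000001506) lies on chr11:94936224-94953042 of GRCm38, and Col3a1 (ENSMUSG00000026043) on chr1:45311538-45349706.

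Collagen I and III transcripts were present at low levels in every class. In suffix 1 Col1a1 stood at 747 CPM in Schwann cells, 393 in endothelial cells, 216 in mural cells and 63.9 in keratinocytes, against 148 in myeloid cells. In suffix 2 the values were 300, 32.6, 109 and 21.8 CPM, against 30.2 in myeloid cells. Keratinocytes were thus below the myeloid level in both libraries and endothelial cells were near it in suffix 2. A single endothelial cell of suffix 1 held 10.5% collagen UMIs, and without it endothelial Col1a1 went from 221 to 85.9 CPM, Col1a2 from 236 to 69.8 CPM and Col3a1 from 123 to 80.5 CPM over both libraries. With every cell thinned to 2000 UMIs, a Col1a1 UMI was seen in 83.7% of fibroblasts, 43.8% of Schwann cells, 25% of mural cells, 15% of endothelial cells and 4.55% of keratinocytes, against 21.3% of myeloid cells. Thinning left out 48, 14, 13, 26, 2 and 69 cells of these classes, and the unthinned shares were 94.3%, 64.3%, 52.2%, 40.9%, 63.2% and 60.4%. The endothelial and keratinocyte shares were not above the myeloid share, and the source of these UMIs was not tested. Mural cells were above the myeloid CPM of their own library in both. All of these shares pool libraries with unlike myeloid levels.

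Col5a1 and Col5a2, chains of the fibre-regulating collagen V, were highest in fibroblasts as well. Col5a1 was at 553 and 331 CPM in suffix 1 and suffix 2, 4.75 times the Schwann level over both libraries. Col5a2 was at 819 and 523 CPM, 6.95 times that level. The gap between the libraries was narrower for these chains than for Col1a1, Col1a2 and Col3a1. The remaining collagen V chain, Col5a3, had another pattern and was highest in Schwann cells, at 228 and 181 CPM against 103 and 55.4 CPM in fibroblasts. It was 2.54 times higher over both libraries (log2 ratio 1.34, 1.11 to 1.57). Relative to Col5a2, Col5a3 gave 2.09 UMIs for each Col5a2 UMI in Schwann cells (1.61 to 2.73) and 0.119 in fibroblasts (0.111 to 0.126).

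Col27a1 and Col24a1 also led in Schwann cells. Col27a1, a chain known from cartilage, was at 93.1 and 225 CPM in the Schwann cells of suffix 1 and suffix 2 and at 50.7 and 17.7 CPM in fibroblasts. Mural cells had 23.4 and 93.2 CPM. Col24a1, a minor fibrillar chain, had 23 of its 28 UMIs in Schwann cells, which put it at 33.2 and 18.3 CPM there. Only 7 of the 23 came from Schwann cells with at most 2 UMIs of the fibroblast markers, described below. Endothelial cells, the next class, held 1 UMI, and the ratio of 120 has a log2 interval of 4.28 to 12.27. Col2a1, Col11a1 and Col11a2 did not reach 20 CPM in any stromal class, and over all fibroblasts Col11a1 was at 10.3 CPM.

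RefSeq sequence of the 250 bases before the annotated start was at hand for 35 of the 44 genes, among which Col1a1 and Col5a2 are not. The windows of Col3a1 and Col5a1 are shown because both genes passed the 4-fold limit in fibroblasts and no annotated exon overlaps them. The first is chr1:45311288-45311537 and the second chr2:27886175-27886424 of GRCm38.p6, both on the plus strand, read 5′ to 3′, with the motifs found in capitals.
Col3a1: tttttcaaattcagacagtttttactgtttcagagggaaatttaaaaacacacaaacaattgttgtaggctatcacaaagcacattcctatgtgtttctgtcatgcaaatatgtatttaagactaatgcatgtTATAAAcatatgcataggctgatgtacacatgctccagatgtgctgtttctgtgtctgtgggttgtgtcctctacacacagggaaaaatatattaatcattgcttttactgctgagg
Col5a1: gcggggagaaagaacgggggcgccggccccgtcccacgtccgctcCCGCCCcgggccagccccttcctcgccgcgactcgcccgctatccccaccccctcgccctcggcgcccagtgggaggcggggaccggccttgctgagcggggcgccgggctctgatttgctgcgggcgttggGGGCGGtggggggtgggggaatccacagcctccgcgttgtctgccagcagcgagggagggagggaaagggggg
A search on both strands used 3 short motifs. The letters CCAAT make the CCAAT box. The letters TATAAA are the core of a TATA box. The letters GGGCGG make the GC box that Sp1 proteins bind. The motifs share no overlap with one another. The Col3a1 window held the TATA box letters 117 bases before the start. The Col5a1 window held the GC box letters 205 bases before the start on the minus strand and 73 bases before it on the plus strand. Over 38 windows of the 35 collagen genes, the CCAAT box was found in 34.2%, the TATA box in 13.2% and the GC box in 57.9%, against 33.8%, 12.4% and 32.7% of 32851 windows of all genes. These are matches of letters and not sites shown to be used.

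The basement membrane genes had no single source. Col4a1, a chain of the collagen IV network found in every basement membrane, was at 883 and 445 CPM in endothelial cells, 506 and 569 CPM in mural cells, 649 and 266 CPM in Schwann cells, and 370 and 354 CPM in fibroblasts. Col4a2, its partner in the same trimer, was at 478 and 243, 305 and 298, 279 and 133, and 162 and 145 CPM in the same order. Endothelial cells led in suffix 1 and mural cells in suffix 2, so the order of these 2 classes was not stable between libraries. Together the pair was higher in endothelial and mural cells than in fibroblasts by a log2 ratio of 0.98, with 1.31 in suffix 1 and 0.51 in suffix 2. Keratinocytes, which rest on a basement membrane, had 23.1 and 26.8 CPM of Col4a1, but 12.4 and 5.49 CPM in the 53 of 68 cells with at most 2 UMIs of the fibroblast markers, which summed to 42.6 and 263 CPM over all keratinocytes. Myeloid cells had 4.20 CPM over both libraries. At 2000 UMIs a cell, Col4a1 was seen in 62.0% of endothelial and 62.5% of mural cells and in 0.914% of myeloid cells, against unthinned shares of 86.9%, 78.3% and 3.43%. Col4a1 was therefore well above the myeloid level in 4 classes.

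The Col4a1 and Col4a2 genes start on opposite strands of chromosome 8 and their annotated first exons share 22 bases, at chr8:11312805-11312826 of GRCm38. This shared start is shown, on the plus strand, because the chains move together across the classes. It lies outside the windows before the 2 starts, so the motif search did not cover it. The GC box letters GGGCGG occur in it and are left in lower case.
Col4a1 and Col4a2: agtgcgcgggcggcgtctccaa
Both genes led in the same class in each library, and their ratio stayed within a narrow band. The number of Col4a1 UMIs for each Col4a2 UMI was 1.84 in endothelial cells (1.74 to 1.96), 1.81 in mural cells, 1.57 in keratinocytes, 2.22 in Schwann cells and 2.35 in fibroblasts (2.23 to 2.48).

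The other chains of collagen IV were scarce. Col4a4, a chain best known from the kidney filter, was at 29.5 and 26.9 CPM in fibroblasts, and Col4a3, whose gene starts 71 bases away on the opposite strand of chromosome 1, was at 8.30 CPM over both libraries. Col4a5 was highest in mural cells at 70.3 and 31.1 CPM, with 20.1 and 4.96 CPM in keratinocytes. Col4a6, which starts 1308 bases from Col4a5 on the X chromosome and pairs with it in epithelial basement membranes, reached 13 CPM in keratinocytes and 9.34 CPM in mural cells and was not detected in fibroblasts. A count of 3 would be 0.226 CPM there.

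Col15a1 and Col18a1 encode related collagens that carry sugar chains and lie in or beside basement membranes. Col15a1 was at 288 and 155 CPM in fibroblasts and 179 and 141 CPM in endothelial cells, while mural cells had 18.7 and 12.4 CPM. Col18a1 had nearly the reverse order, with 141 and 224 CPM in mural cells, 175 and 209 CPM in Schwann cells and 53.4 and 57.5 CPM in fibroblasts. Schwann and mural cells did not differ in Col18a1 beyond counting error (log2 ratio 0.01, -0.35 to 0.38). For each Col18a1 UMI there were 4.09 Col15a1 UMIs in fibroblasts (3.77 to 4.44), 2.37 in endothelial cells, 0.553 in Schwann cells and 0.0784 in mural cells. Col7a1, whose protein anchors the epidermis to the dermis, was highest in keratinocytes at 35.5 and 30.8 CPM, with 18.4 and 4.54 CPM in fibroblasts. This order turned under a stricter filter on cells, where the log2 ratio of keratinocytes over fibroblasts went from 1.5 to -0.86. The Prlr-Crabp1 group of fibroblasts, described below, had 35.3 and 33.5 CPM of Col7a1, near the keratinocyte level.

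The endothelial cells fell into 3 clusters that differed in these chains. The cluster led by Fabp4 and Aqp1 had 1265 and 581 CPM of Col4a1 in suffix 1 and suffix 2, and the cluster led by Ccl21a and Mmrn1, which are lymphatic markers, had 204 and 186 CPM. Col15a1 was not detected in the latter, where 3 counts would be 3.39 CPM, and stood at 175 and 96.6 CPM in the former. The last cluster, led by Selp and Tm4sf1, had the most Col15a1, at 412 and 308 CPM. Col18a1 was at 163 and 98.9 CPM in the cluster led by Ccl21a and at 23.3 and 42.8 CPM in that led by Fabp4. The Selp cluster of suffix 1 held the endothelial cell with 10.5% collagen, and its Col1a1 level was 1713 CPM with that cell and 342 CPM without it, against 57.4 CPM in suffix 2.

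**Figure D3:**
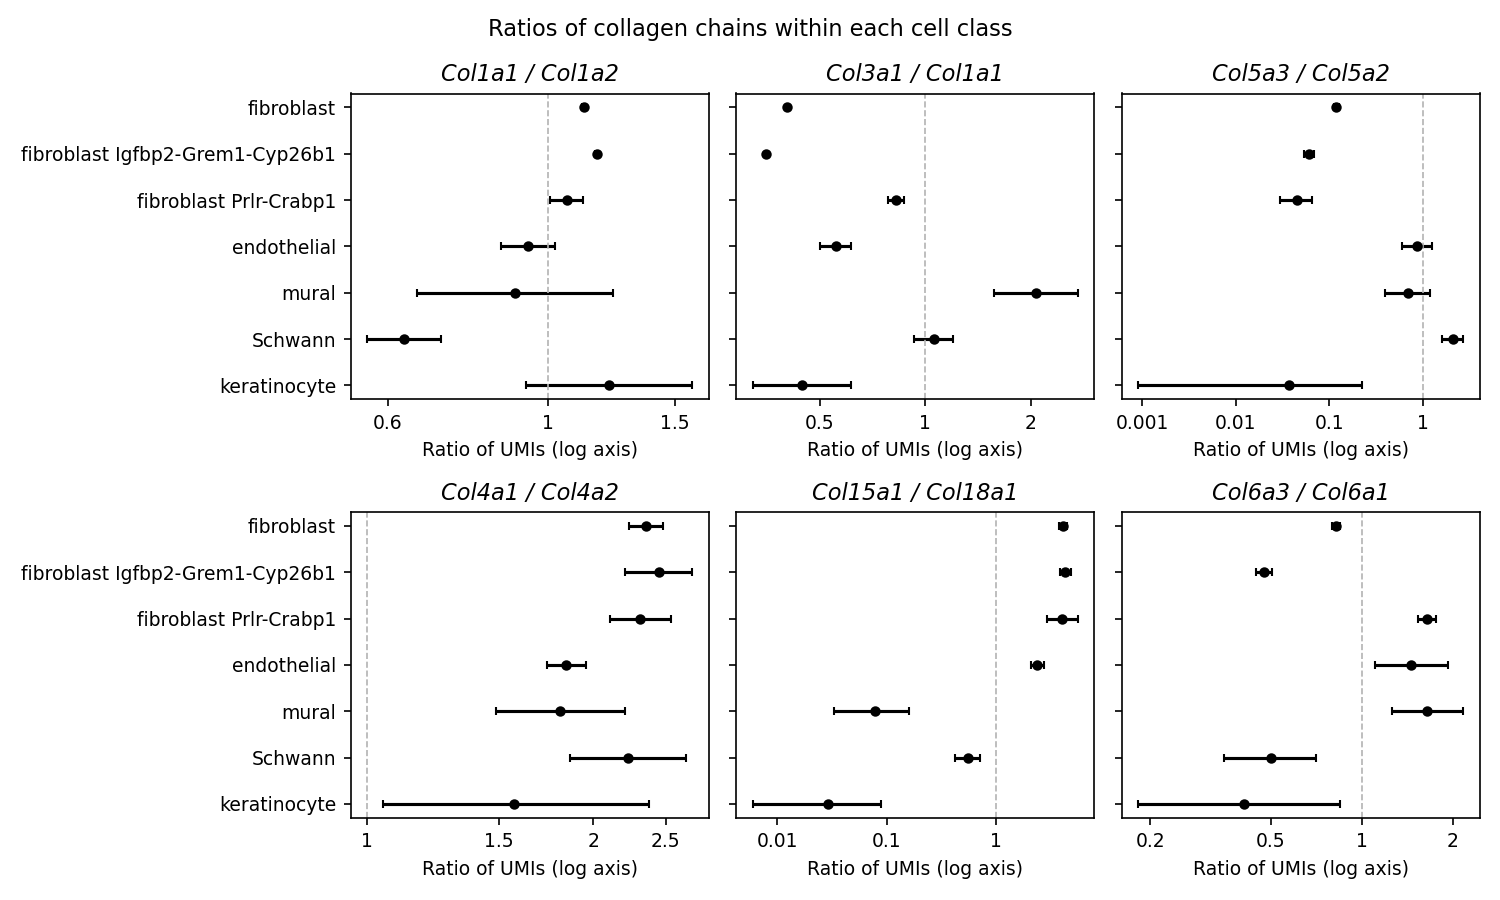
Ratio of UMIs between pairs of collagen chains (x axes, log scale) in the 5 stromal classes and 2 fibroblast groups (y axis), with exact 95% intervals over both libraries. The Col4a1 to Col4a2 ratio stays between 1.57 and 2.35 in the 5 stromal classes, while Col5a3 to Col5a2 and Col15a1 to Col18a1 differ widely between classes.

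Collagen VI was most abundant in fibroblasts, with mural cells next. Col6a1, 1 of the 3 chains of the usual trimer, was at 650 and 554 CPM in fibroblasts and 197 and 143 CPM in mural cells. Col6a2 was at 409 and 336 CPM against 164 and 130, and Col6a3, the long chain, at 585 and 398 CPM against 230 and 298. Schwann cells had 157 and 71.1 CPM of Col6a1, endothelial cells 21.1 and 17.2 CPM, and myeloid cells 2.91 CPM over both libraries. The collagen VI genes together were higher in fibroblasts than in the other stromal cells by a log2 ratio of 3.92, against 6.71 for the fibrillar genes. Col6a3 gave 1.65 UMIs for each Col6a1 UMI in mural cells and 0.823 in fibroblasts. Col6a6, a chain that can stand in for Col6a3, was at 37.7 and 18.6 CPM in fibroblasts and 22.2 times higher there than in endothelial cells, while mural and Schwann cells held none, where 3 counts would be 5.60 and 3.38 CPM. Col6a5 stayed at or below 11.2 CPM in every stromal class and Col6a4 had 1 UMI in endothelial cells and none in the other stromal classes.

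Among the FACIT genes, Col16a1, Col14a1 and Col12a1 were shared by fibroblasts and Schwann cells and Col20a1 was not. Col20a1, a fibril-associated chain with little known function, was at 195 and 216 CPM in Schwann cells and 2.12 and 2.75 CPM in fibroblasts, 85.0 times higher over both libraries. Its UMIs came from 11.9% of the Schwann cells, or from 10.7% at 2000 UMIs a cell. Col16a1 was at 259 and 142 CPM in fibroblasts and 97.5 and 133 CPM in Schwann cells. Col14a1, which binds collagen fibrils through decorin, was at 94.5 and 83.3 CPM in fibroblasts and 53.2 and 9.17 CPM in Schwann cells. Col12a1, its relative in tendon and stressed matrix, went the other way between the libraries in fibroblasts, with 25.7 CPM in suffix 1 and 92.0 CPM in suffix 2, against 88.6 and 82.6 CPM in Schwann cells. Col9a1, Col9a2, Col9a3, Col19a1 and Col22a1 were all below 20 CPM.

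Some Schwann values differed with the fibroblast marker UMIs of the cells, and the source of those UMIs was not tested. The 8 fibroblast markers, among them Pdgfra, Dcn and Lum, summed to 4369 and 2034 CPM in the Schwann cells of suffix 1 and suffix 2, and 41 of the 126 cells held more than 2 UMIs of them. In the 85 other cells the marker sum was 85.1 CPM over both libraries, and Col20a1 was at 381, Col5a3 at 266, Col27a1 at 262, Col18a1 at 237 and Col16a1 at 192 CPM. All 5 were higher than in the whole class. In the same 85 cells Col1a1 was at 320 CPM against 527 in the whole class, Col6a3 at 13.4 against 57.5, and Col23a1 at 26.9 against 84.5. Col24a1 and Col12a1, both highest in Schwann cells, were also lower, at 15.7 CPM against 25.9 and at 69.4 against 85.7. Col24a1 was then under the 20 CPM limit, with 7 of its 23 Schwann UMIs left. Whether the remaining Col1a1 is free RNA was not tested, and the myeloid level was 118 CPM.

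Few genes remain outside those groups. Col17a1, the transmembrane collagen of the hemidesmosomes that hold basal keratinocytes in place, was at 618 and 648 CPM in keratinocytes and below 10 CPM in every other stromal class of either library. It was 93.9 times the endothelial level over both libraries and was seen in 60.6% of keratinocytes at 2000 UMIs (47.8% to 72.4%), or in 83.8% unthinned, against 0.687% of myeloid cells unthinned. Col28a1, a chain that has been described around peripheral nerve, was at 35.5 and 20.6 CPM in Schwann cells, 5.93 times the endothelial level. Fibroblasts had 0.302 CPM of Col28a1, and mural cells and keratinocytes none, where 3 counts would be 5.60 and 1.11 CPM. Col8a1, a network-forming chain of vessels and cornea, was at 23.4 and 55.9 CPM in mural cells, 8.05 and 56.4 CPM in fibroblasts and 39.9 and 9.17 CPM in Schwann cells, so a different class led in each library and in their sum. Col8a2, Col10a1, Col13a1, Col25a1 and Col26a1 did not reach 20 CPM in a stromal class.

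The windows of Col24a1 and Col28a1 are shown because both chains were called in Schwann cells and no exon overlaps them. They are chr3:145292222-145292471 on the plus strand and chr6:8192618-8192867 on the minus strand of GRCm38.p6.
Col24a1: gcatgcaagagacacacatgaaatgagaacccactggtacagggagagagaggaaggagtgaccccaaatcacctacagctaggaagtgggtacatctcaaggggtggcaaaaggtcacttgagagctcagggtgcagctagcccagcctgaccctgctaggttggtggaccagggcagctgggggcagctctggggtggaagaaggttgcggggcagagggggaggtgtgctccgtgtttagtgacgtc
Col28a1: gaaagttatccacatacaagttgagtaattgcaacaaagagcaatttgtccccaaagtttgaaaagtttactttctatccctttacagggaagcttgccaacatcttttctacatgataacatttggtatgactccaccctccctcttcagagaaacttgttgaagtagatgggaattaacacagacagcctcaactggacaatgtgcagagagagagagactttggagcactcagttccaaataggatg
None of the 3 motifs was found in either window, so neither has capitals.

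The fibroblasts fell into 6 groups, 4 of them named by marker genes and 2 called by their leading genes only. The list behind the Igfbp2-Grem1-Cyp26b1 name also holds Thbs4 and Igfbp5, and only 3 of its genes were raised in each subcluster of that group. Thbs4 was instead a leading gene of an unnamed group. The groups held 287 Igfbp2-Grem1-Cyp26b1 cells (104 from suffix 1 and 183 from suffix 2), 120 Inmt-Gdf10-C3 cells (25 and 95), 111 Prlr-Crabp1 cells (80 and 31), 89 Ptx3-Has1-Prg4 cells (13 and 76), 72 unnamed cells led by Cthrc1 and Pdgfrl (61 and 11) and 147 unnamed cells led by Thbs4 and Myoc (35 and 112). The Prlr-Crabp1 group carries markers used for papillary and dermal papilla fibroblasts, and its level of the 8 general fibroblast markers was 1011 and 2453 CPM, against 15444 to 27462 CPM in the other groups and libraries. Marker genes of the general fibroblast were thus low in that group.

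The collagen share differed widely between the fibroblast groups. In suffix 1 the 44 genes took 22.9% of the UMIs of the Cthrc1-Pdgfrl cells, 21.1% in the Igfbp2-Grem1-Cyp26b1 cells, 6.08% in the Inmt-Gdf10-C3 cells, 4.67% in the Thbs4-Myoc cells, 4.39% in the Ptx3-Has1-Prg4 cells and 0.574% in the Prlr-Crabp1 cells. In suffix 2 the values in the same order were 14.0%, 5.70%, 0.949%, 1.01%, 0.784% and 0.717%. Suffix 1 was higher in every group but the Prlr-Crabp1 cells, where 1 cell gave 25.5% of the suffix 2 collagen UMIs and the median over cells was higher in suffix 1, at 0.403% against 0.288%. In the suffix 2 Cthrc1-Pdgfrl cells 1 of 11 cells gave 96.0% of the collagen UMIs, and the share without it was 1.48%. The richest Inmt-Gdf10-C3 cell of suffix 1 gave 45.6% of the group's collagen UMIs, and the share without it was 3.80%.

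**Figure D4:**
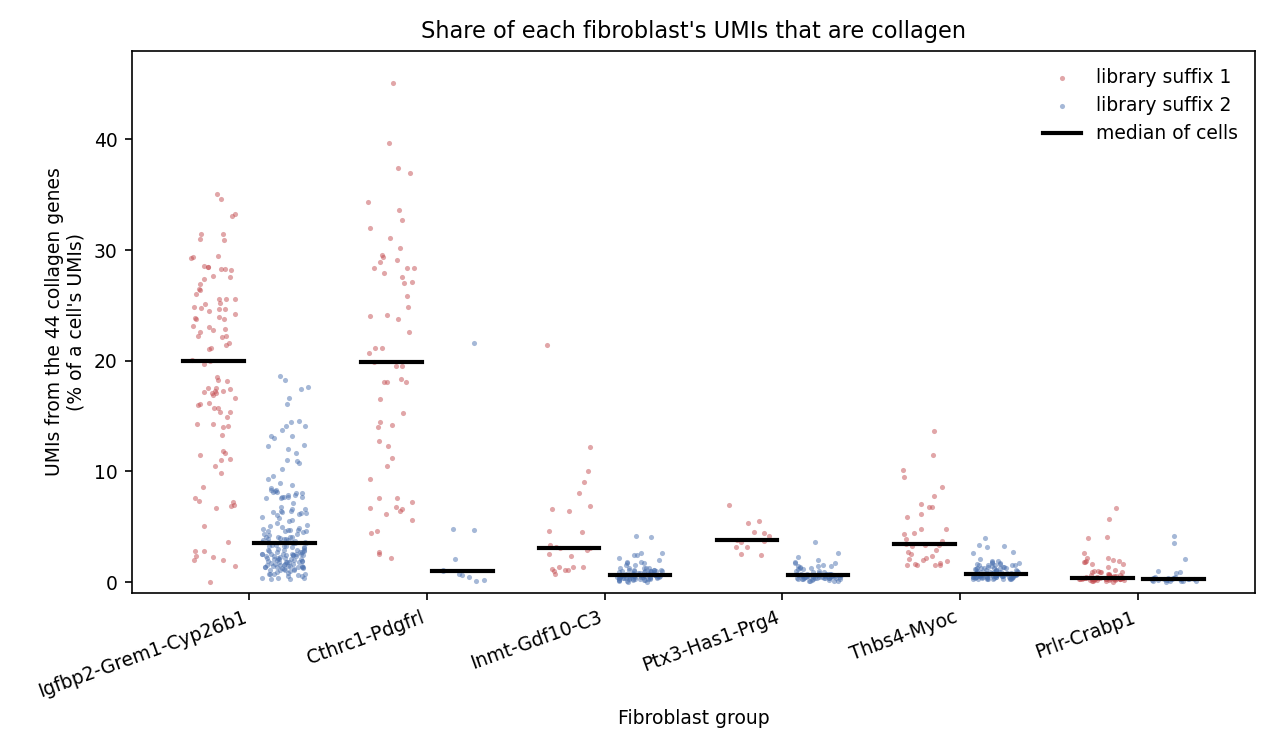
Share of each fibroblast's UMIs that came from the 44 collagen genes (y axis, %), for each fibroblast group (x axis) and library (colour), with 1 point for each cell and a line at the median. The medians of the Igfbp2-Grem1-Cyp26b1 cells are 20.02% in suffix 1 and 3.57% in suffix 2, and those of the Prlr-Crabp1 cells are 0.403% and 0.288%.

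Cell by cell, the median share over all fibroblasts was 6.78% in suffix 1 and 1.04% in suffix 2, and the highest cell had 45.1%. In the Igfbp2-Grem1-Cyp26b1 cells the median was 20.02% with quartiles of 14.1% and 25.6% in suffix 1, and 3.57% with quartiles of 1.89% and 6.54% in suffix 2. The middle ranges of the 2 libraries did not overlap, although single cells did. More than 10% collagen was found in 82.7% of these cells in suffix 1 and in 12.0% in suffix 2. This group was made of 2 subclusters that followed the libraries, with 18 cells of suffix 1 and 179 of suffix 2 in one and 86 and 4 in the other, so cell state, age and library cannot be told apart in it.

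The libraries' difference was uneven over the collagen genes of the Igfbp2-Grem1-Cyp26b1 cells. Of 16 chains at 20 CPM over both libraries, 5 were at least 2 times higher in suffix 1, against 1.71% of all genes tested, and 2 were at least 2 times higher in suffix 2, against 11.4%. Col1a1 stood at 95498 and 22776 CPM, Col1a2 at 77507 and 22259, and Col3a1 at 32986 and 8355. Col15a1 stood at 577 and 233 CPM and Col5a3 at 88.3 and 41.0 CPM. These were the 5 higher in suffix 1. Among chains under 20 CPM over both libraries, the collagen IV gene Col4a5 was at 20.1 CPM in suffix 1 and 2.35 CPM in suffix 2, from 40 and 7 UMIs. Col6a1 was at 770 and 572 CPM, Col6a3 at 280 and 328 CPM, and Col4a1 at 214 and 289 CPM. The 2 chains higher in suffix 2 were the FACIT genes Col12a1, at 12.0 and 74.2 CPM, and Col14a1, at 19.1 and 49.0 CPM. The median log2 ratio of suffix 1 over suffix 2 was 0.71 over the 16 chains and -0.36 over all genes at 20 CPM, with 1 CPM added.

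In the Thbs4-Myoc cells the difference reached most chains. Of 22 chains at 20 CPM, 18 were at least 2 times higher in suffix 1, against 4.33% of all genes, and none in suffix 2, against 8.15%. Col1a1 was at 11947 and 2191 CPM, Col6a3 at 1300 and 354 CPM, and Col4a1 at 916 and 332 CPM. Col12a1 was an exception at 115 and 175 CPM. In the Inmt-Gdf10-C3 cells 8 of 17 chains were at least 2 times higher in suffix 1 and none in suffix 2, against 5.5% and 12.7% of all genes. The Ptx3-Has1-Prg4 cells had 8 of 20 higher in suffix 1 and 5 in suffix 2, against 12.0% and 18.5%, and the Prlr-Crabp1 cells 2 of 19 in each direction, against 6.77% and 4.08%. The Ptx3-Has1-Prg4 group was made of 2 subclusters, with 1 cell of suffix 1 and 71 of suffix 2 in one and 12 and 5 in the other, so its library difference is also one between subclusters. In the Cthrc1-Pdgfrl cells 8 of 18 were higher in suffix 1 and none in suffix 2, against 21.8% and 13.9%, with the 11 cells of suffix 2 noted above.

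The other stromal classes differed between the libraries to varying degrees. Endothelial cells had 4 of 8 chains at least 2 times higher in suffix 1 and none in suffix 2, against 2.29% and 0.851% of all genes. These were Col1a1, Col1a2, Col3a1 and Col6a3, and the collagen-rich cell described above is among the suffix 1 cells. Without it Col1a1 of suffix 1 went from 393 to 135 CPM, and suffix 2 had 32.6 CPM. The myeloid cells had 148 and 30.2 CPM of Col1a1. Without that cell endothelial Col1a2 was at 111 and 24.5 CPM, against 131 and 25.9 CPM in myeloid cells. Col3a1 was at 135 and 21.3 CPM against 76.1 and 15.8, and Col6a3 at 35.3 and 18.1 against 1.63 and 1.09. The fold between libraries was thus below the myeloid one for Col1a1 and Col1a2 and above it for Col3a1 and Col6a3. The source of these UMIs was not tested. Schwann cells had 8 of 22 and 1, against 7.76% and 4.36%. Mural cells had 2 of 17 in each direction, against 10.4% and 8.32%, and keratinocytes 2 of 10 and 1, against 6.65% and 2.25%. Over all fibroblasts the counts were 6 of 21 and 2, against 5.78% and 5.88%.

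The fibroblast groups also differed in which chains they held. Of 26 chains at 20 CPM in at least 1 group, 18 had the same leading group in both libraries. The Thbs4-Myoc cells led in 6 of these, among them Col6a1, Col4a3 and Col4a4, the Prlr-Crabp1 cells in 5, the Cthrc1-Pdgfrl cells in 4 and the Igfbp2-Grem1-Cyp26b1 cells in 3. The 4 of the Cthrc1-Pdgfrl cells were Col1a2, Col3a1, Col5a1 and Col5a2, and in suffix 2 their lead comes with the single collagen-rich cell noted above. Sums over both libraries gave the same leader for 15 of the 18, and the groups draw on the libraries unequally. No share over all genes stands beside these counts, so they are not read as particular to collagens. Fibrillar chains made 97.8% of the collagen UMIs of the Igfbp2-Grem1-Cyp26b1 cells and 48.7% of those of the Prlr-Crabp1 cells. The latter had 23.6% microfibrillar, 12.7% basement membrane and 9.97% transmembrane UMIs. Col3a1 gave 0.351 UMIs for each Col1a1 UMI in the Igfbp2-Grem1-Cyp26b1 cells, 0.431 in the Cthrc1-Pdgfrl cells, 0.657 in the Inmt-Gdf10-C3 cells, 1.01 in the Thbs4-Myoc cells and 1.16 in the Ptx3-Has1-Prg4 cells. Mural cells had a ratio of 2.06 (1.57 to 2.72), with 2.07 and 2.06 in the 2 libraries, against 0.516 in myeloid cells. The order of the groups by this ratio, over both libraries, was nearly the reverse of their order by collagen share in suffix 1, apart from the Prlr-Crabp1 cells at 0.824. Col1a1 divides the ratio and is a large part of the share, so a reverse order is partly built in and nothing is drawn from it.

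**Figure D5:**
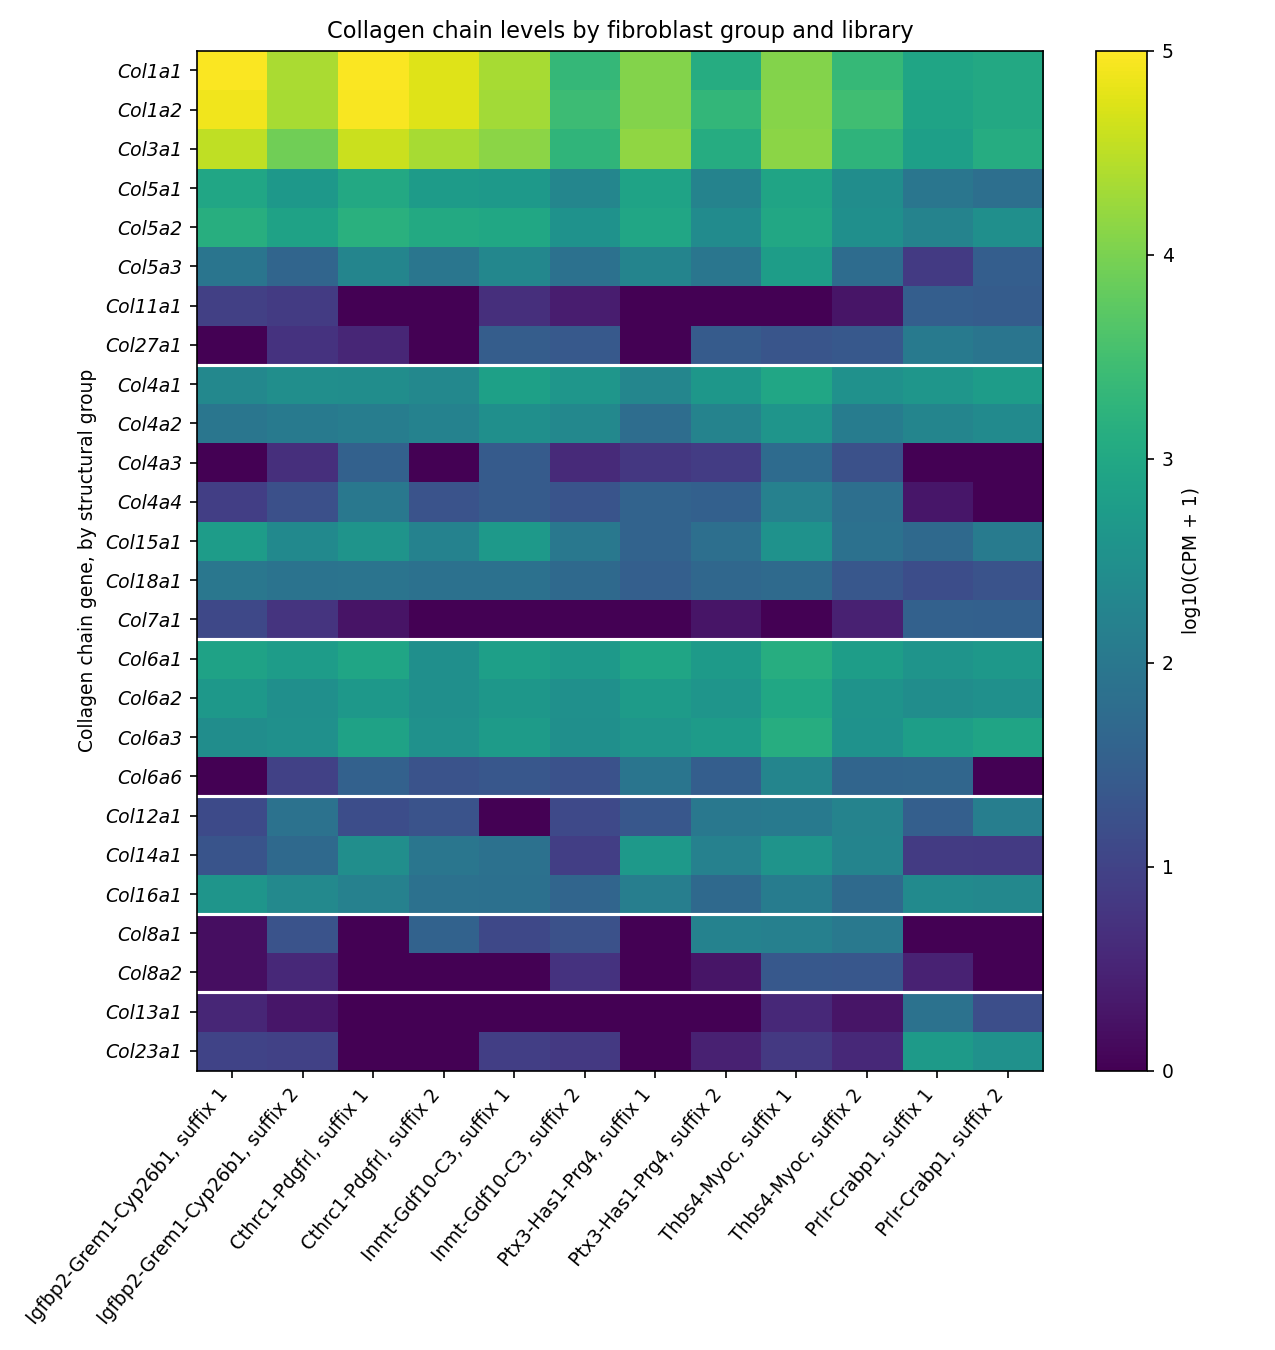
Level of the collagen genes (y axis, grouped by structure) in the 6 fibroblast groups of each library (x axis), as colour on a scale of log10(CPM + 1). Col23a1 and Col13a1 are high in the Prlr-Crabp1 cells alone among the 6, and Col8a1 is high in the Thbs4-Myoc cells of both libraries and in the Ptx3-Has1-Prg4 cells of suffix 2 only.

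Col23a1, a transmembrane collagen (ENSMUSG00000063564, chr11:51289920-51583918 of GRCm38), set the Prlr-Crabp1 cells apart. It was at 534 CPM in suffix 1 and 338 CPM in suffix 2 there, and the highest of the other groups had 8.65 CPM over both libraries. A UMI was found in 69.4% of the Prlr-Crabp1 cells and, at 2000 UMIs a cell, in 47.7% (38.1% to 57.5%), against 1.79% of the Igfbp2-Grem1-Cyp26b1 cells and 0.0508% of myeloid cells at that depth. Over all fibroblasts Col23a1 was at 232 and 23.5 CPM, and the Prlr-Crabp1 cells were 80 of the 318 fibroblasts of suffix 1 and 31 of the 508 of suffix 2. They held 3030264 of the 7082245 fibroblast UMIs of suffix 1 and 328168 of the 6172160 of suffix 2, which is the weight they have in a class level. Outside the fibroblasts, Col23a1 was at 70.6 and 92.9 CPM in the lymphatic endothelial cluster. The window before its start, chr11:51289670-51289919 on the plus strand, is shown as that of the chain that varied most sharply between the fibroblast groups, with the GC box letters on the minus strand, in capitals, 11 bases before the start.
Col23a1: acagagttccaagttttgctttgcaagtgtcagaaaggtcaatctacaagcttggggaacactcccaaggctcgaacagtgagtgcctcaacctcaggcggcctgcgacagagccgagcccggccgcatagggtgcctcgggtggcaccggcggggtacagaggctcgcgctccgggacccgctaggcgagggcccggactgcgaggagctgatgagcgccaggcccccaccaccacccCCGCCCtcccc

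Other chains led in the Prlr-Crabp1 cells too. Col13a1, another transmembrane collagen, was at 75.9 and 15.2 CPM there, and no other group reached 2 CPM over both libraries. Col27a1 was at 113 and 85.3 CPM, Col7a1 at 35.3 and 33.5 CPM and Col11a1 at 29.7 and 27.4 CPM. These 3 genes had close values in the 2 libraries. In suffix 1 the Col27a1 level was above the 93.1 CPM of Schwann cells, and in suffix 2 it was below their 225 CPM. Col6a3 was at 640 and 829 CPM in these cells and exceeded Col6a1, with 1.65 UMIs for each Col6a1 UMI, while the Igfbp2-Grem1-Cyp26b1 cells had 0.474. Col4a1 was at 430 and 573 CPM, within the range of the other groups in suffix 1 (200 to 916 CPM) and above it in suffix 2 (215 to 449 CPM), while Col1a1 at 867.9 and 1018 CPM was the lowest of the 6 groups in both.

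Col8a1 was at 149 and 104 CPM in the Thbs4-Myoc cells. In the Ptx3-Has1-Prg4 cells it was at 161 CPM in suffix 2 and had no UMI in suffix 1, where 3 counts would be 16.2 CPM, and the 2 libraries lie in different subclusters of that group. The Thbs4-Myoc cells also had the most Col6a6, at 191 and 42.4 CPM, and Col12a1. Col4a4 was at 154 and 65.5 CPM in these cells and at 98.0 and 17.9 CPM in the Cthrc1-Pdgfrl cells, and Col4a3 followed it at 56.2 and 16.6 CPM and at 35.3 and 0 CPM, where 3 counts would be 53.7 CPM. Col14a1 was high in the Cthrc1-Pdgfrl cells at 289 and 89.5 CPM, in the Ptx3-Has1-Prg4 cells at 512 and 154 CPM and in the Thbs4-Myoc cells at 385 and 180 CPM. Those 3 groups were above the Igfbp2-Grem1-Cyp26b1 cells, at 19.1 and 49.0 CPM, in both libraries. Col15a1 was at 577 and 233 CPM and Col16a1 at 403 and 223 CPM in the Igfbp2-Grem1-Cyp26b1 cells. Col4a1 was at 684 and 430 CPM in the Inmt-Gdf10-C3 cells.

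The genes that modify, secrete and cross-link collagen were also highest in fibroblasts for the most part. Of 35 such genes, 28 reached 20 CPM, and fibroblasts led in 23 of them, Schwann and mural cells in 2 each and keratinocytes in 1. Over all genes at 20 CPM, 15.8% led in fibroblasts, 27.5% in Schwann cells, 18.0% in mural cells and 20% in keratinocytes. At least 4 times higher in 1 class were 7 of the 28, 6 in fibroblasts, against 13.5% of the genes at 20 CPM. Serpinh1, the collagen chaperone HSP47, was at 1511 and 1516 CPM in fibroblasts and so did not differ between the libraries as Col1a1 did. Sparc, a collagen-binding matrix protein, did, with 21397 and 6578 CPM. Lox, which cross-links fibres, was at 329 and 482 CPM, 10.2 times the mural level over both libraries. Pcolce, an enhancer of procollagen cleavage, was at 647 and 615 CPM, and Bmp1, the protease it assists, at 198 and 161 CPM. The general folding enzymes P4hb and Ppib led in fibroblasts by only 1.82-fold and 1.47-fold.

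In the Igfbp2-Grem1-Cyp26b1 cells the same genes did not follow collagen I as a set. Sparc was at 41738 and 11389 CPM and Fkbp10, a folding enzyme of the endoplasmic reticulum, at 248 and 116 CPM. Serpinh1 was at 2369 and 2062 CPM, Lox at 468 and 615 CPM and Loxl1, another cross-linking enzyme, at 60.7 and 264 CPM. Sparc and Fkbp10 thus went with the fibrillar chains and Loxl1 went the other way.

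Of 13 genes for collagen receptors and breakdown, 8 reached 20 CPM, and 4 led in fibroblasts, 2 in mural cells and 2 in keratinocytes. The shares over all genes at 20 CPM were 15.8%, 18.0% and 20% in the same order. With only 8 genes, the 2 in mural cells and 2 in keratinocytes are not read as particular to this list. Mmp2 and Mmp14, proteases that degrade matrix, and Mrc2, which takes up collagen fragments, were 18.0, 7.18 and 7.03 times higher in fibroblasts than in the next class, and these 3 of 8 were the only ones past 4-fold, against 13.5% of all genes at 20 CPM. The integrin chains Itgb1 and Itga1, which form a collagen receptor, were highest in mural cells at 801 and 668 CPM and at 309 and 264 CPM. Ddr1, a receptor kinase for collagen, was highest in keratinocytes at 119 and 97.2 CPM, and its relative Ddr2 in fibroblasts at 220 CPM over both libraries.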

How the data were processed

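Single-cell libraries of sorted mouse skin cells were deposited as 1 matrix of UMI counts, which the authors made with Cell Ranger 4.0.0 on mm10 per the labels. No source used here gives further counting settings. The deposited counts are whole numbers that were not normalized, and no column of per-sample values was left unused (0). Library depth was 35821853 UMIs over 3235 barcodes for suffix 1 and 20382748 UMIs over 2022 barcodes for suffix 2. The collagen genes, marker lists and pathway lists were chosen with earlier results of these data known.

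Barcodes with 500 genes and 1000 UMIs or more and no more than 10% mitochondrial UMIs were kept, and 692 and 457 barcodes were over the mitochondrial limit. Counts were log-normalized and clustered in scanpy 1.11.5 on 2000 variable genes without any collagen, processing or receptor gene, with 30 principal components, 15 neighbours and Leiden resolution 1 (leidenalg 0.10.2), which gave 28 clusters. Fibroblasts were clustered again at resolution 0.5 into 9 subclusters. A cluster took the name of the list, out of 21, whose markers had the highest mean log2 ratio over the median of the clusters (10 CPM added). For the fibroblast groups the median was that of the 9 subclusters. A name needed at least 3 markers raised at least 2-fold at 20 CPM or more. It also needed a lead of 1 over other lists (0.5 among fibroblast groups). This scoring rule was set after the clusters were seen. A cluster of 99 cells with endothelial and mural markers and a subcluster of 10 cells with macrophage markers were kept out of the stromal classes. No doublet caller was run.

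UMIs were summed for each class and library and scaled to 1000000 UMIs (CPM). Intervals are exact 95% Poisson intervals, and ratios of 2 sums have exact binomial ones (scipy 1.17.1). Zeros that a comparison rests on are given with the level that 3 counts would have. For shares of cells, 2000 UMIs were drawn from each cell. No test was run, because each age has 1 library, and the naming rule covered all 44 collagen genes, with values for those at 20 CPM in a stromal class. From the list of 35 processing genes and that of 13 receptor and breakdown genes, values were given for genes among the 12 with the highest levels of each list, and Fkbp10 was named after its values were seen. The step that makes calls was tested on simulated data. Other filters, resolutions, gene numbers, weightings and single libraries were tried as alternatives.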

Additional observations from a re-analysis of the deposited data

Results flagged for a closer look

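Collagen UMIs were also found in cells outside the stromal classes, above the 321 CPM of the 44 genes in myeloid cells. Mast cells had 3044 CPM, but 1 of the 32 cells held 87.8% of those UMIs and the level without it was 381 CPM, with 536 CPM in suffix 1 and 6015 CPM in suffix 2 when it is kept. Skeletal muscle cells had 1212 CPM, led by Col3a1 at 319 CPM and Col4a1 at 191 CPM, and no cell exceeded 5% collagen. The 99 cells with both endothelial and mural markers had 3173 CPM, with 4343 CPM in suffix 1 and 1571 CPM in suffix 2, led by Col4a1 at 1080 CPM and Col4a2 at 573 CPM. The 10 cells set aside for their macrophage markers among the fibroblasts had 61907 CPM, and 15487 CPM without the 4 cells over 5% collagen. Whether these UMIs come from doublets was not tested.

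The Prlr-Crabp1 fibroblasts had a log2 ratio of suffix 1 over suffix 2 of -0.32 for all collagen UMIs, while the 5 other fibroblast groups had ratios from 0.71 to 2.68. The difference between the groups was not tested. The sign in the Prlr-Crabp1 cells turned when cells were weighted equally.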

How the results depend on the processing

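No paired analysis was possible because each age has 1 library and no test was run. The collagen level of fibroblasts, 73223 CPM, was 108034 CPM in suffix 1 and 33280 CPM in suffix 2, 70200 with a stricter filter on cells, 72678 with a looser one, 73008 at resolution 0.5, 58000 as a mean over cells, 69492 without cells holding macrophage marker UMIs and 96079 without the Prlr-Crabp1 cells. The log2 ratio of fibrillar chains in fibroblasts over the other stromal cells, 6.71, was 6.80 with the stricter and 6.65 with the looser filter, 6.63 at resolution 0.5, 6.66 at resolution 2, 7.19 with classes from marker UMIs, 5.91 as a mean over cells, 6.67 in suffix 2, 6.47 without macrophage-marker cells, 6.82 per non-collagen UMI, 7.12 without the Prlr-Crabp1 cells and 7.17 without collagen-rich cells outside the fibroblasts. That of Col4a1 and Col4a2 in endothelial and mural cells over fibroblasts, 0.98, was 1.19 with the looser filter, 1.20 at resolution 0.5 and with marker UMIs, 1.31 in suffix 1, 0.51 in suffix 2 and 0.87 per non-collagen UMI, and the stricter filter left no mural class. That of collagen VI, 3.92, was 3.47 and 3.31 with the stricter and looser filters, 3.39 at resolution 0.5, 3.49 with marker UMIs, 3.34 as a mean over cells, 4.09 and 3.70 in suffix 1 and suffix 2, 3.75 without macrophage-marker cells and 4.03 per non-collagen UMI. No ratio changed sign. The number of chains at 20 CPM stayed between 25 and 28 and that of chains 4 times higher in 1 class between 10 and 11. For single genes, 10 of 286 values under the alternatives had another sign, in 7 genes, mostly in suffix 2 alone, where Col23a1 was higher in Schwann cells than in fibroblasts (log2 ratio -1.60), while the stricter filter turned Col7a1 in keratinocytes over fibroblasts from 1.5 to -0.86. The log2 ratio of the libraries in the Prlr-Crabp1 cells turned from -0.32 to 0.53 as a mean and 0.49 as a median over cells. The alternatives per non-collagen UMI, without the Prlr-Crabp1 or collagen-rich cells and over cells for the library ratios were added after the data were seen, and the cause of the other moves was not tested. Mural cells (69) and keratinocytes (68) limit the lowest levels, as 3 counts in mural cells are 5.60 CPM.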
